A study of Mus musculus with 4 samples.

Results

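Kinesins are motor proteins that use ATP to move along microtubules or, in a few families, to take microtubules apart at their ends. In dividing cells a set of them builds the spindle, moves the chromosomes and divides the cell, and in all cells others carry vesicles, endosomes and mitochondria. Still others work in or at the base of the cilium. The kinesin genes of MA-10 cells, a clonal line of mouse Leydig tumor cells, are described here by their mRNA level with and without cordycepin (3'-deoxyadenosine), an analog of adenosine. A gene was taken as a member if its symbol on the array was Kif with a number and, at most, a letter a to c and further digits. This rule found 37 of 19718 genes, with 47 probes.

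MA-10 cells received 100 µM cordycepin (arrays H003 and H004) or vehicle (control arrays H001 and H002) for 3 hours, 2 arrays a group, each with 1 one-colour signal per probe. The sample labels name the vehicle as PBS, and the study's methods name it as DMSO. The cells of both groups are 1 line in culture, and the labels do not say whether duplicates were separate cultures. The p-values therefore reflect only array-to-array spread, possibly technical. In the reported test this spread was pooled over all probes, and a gene's own spread did not set its standard error.

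The comparison asks which kinesin mRNAs differ after cordycepin. Values are normalized intensities in array units, and since probes differ in brightness, levels were not compared between genes. A probe was detected where the authors' detection p was under 0.05. A gene was called lower or higher at an adjusted p under 0.05 in limma (Benjamini-Hochberg over all 24319 probes tested), on the log2 ratio of cordycepin over control, whose standard error was 0.41 for every gene. With 2 arrays against 2, an exact two-sided permutation test of a single gene cannot give a p below 0.333. Groups without overlap reach only this p, and the share of all genes without overlap was not counted. Lack of overlap is therefore given below as a description.

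The arrays as a whole differed. Between 13130 and 13415 probes were detected on the control arrays and between 12193 and 12784 on the cordycepin arrays. With the authors' scaling, 25 of 25 detected kinesin genes were higher on H001 than on H002, with a median log2 gap of 0.49. Between H003 and H004 the median gap was 0.06. The median over all probes was 27.5 on H001, 20.4 on H002 and 20 on both H003 and H004. The scaling had multiplied raw values by 1.14 on H001, 0.888 on H002, 1.11 on H003 and 0.909 on H004. The gaps include these constants, which widened the median gap between the control arrays and narrowed that between the cordycepin arrays. Before scaling, the median gap was the larger between the cordycepin arrays, with H004 the higher. The median log2 ratio of all 18478 genes tested was -0.13, and it became 0.21 after centring every array on its median and 0.12 with quantile-normalized raw intensities. Of the Leydig markers on the array, 7 of 8 were detected, and the probe of Cyp11a1, the first enzyme of steroid synthesis, was listed at 0 on every array. Their list summed to between 27278 and 38344 on the control arrays and between 25917 and 26897 on the cordycepin arrays. Nr5a1, a regulator of steroidogenic genes, was lower (log2 ratio -1.13, adjusted p = 0.0392), and Star did not pass (log2 ratio -1.08, adjusted p = 0.0543). The call was made for 1 of 7 Leydig markers tested, 14.3%, against 14.7% of all genes tested. Of the Sertoli markers, 4 of 8 were detected (Rhox5, Amhr2, Dhh and Sox9, while Amh, Cldn11, Fshr and Wt1 were not). Their list summed to between 20380 and 27207 on the control arrays and between 23089 and 25930 on the cordycepin arrays. Most of this sum was the probe of Rhox5, which read 22684 and 17297 in control and 21940 and 19212 in cordycepin. Sox9 was lower (log2 ratio -2.51), as 1 of 7 Sertoli markers tested (14.3%). Sox9 was not detected on the cordycepin arrays. It was at least 3.65-fold lower, taking the lowest detected intensity of each array as the floor. Of the macrophage markers, 4 of 5 were detected, with sums of 284 to 388 and of 235 to 257. Cd14 was lower (log2 ratio -1.10), as 1 of 5 tested (20%). Germ cell, endothelial and peritubular markers held 0 called genes. The part of these differences in the results below was not tested.

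Of the 37 kinesin genes, 34 had a value above 0 on every array and were tested, and 25 were detected on both arrays of 1 group or of both. Cordycepin-treated cells had lower levels of 9 kinesin genes, 26.5% of those tested and 36% of those detected. They were Kif18a, Kif18b, Kif20b, Kif5c, Kif13a, Kif13b, Kif3b, Kif24 and Kif2a. The call was made in the lower direction for 14.7% of all genes tested and for 22.1% of all 11283 detected genes. No kinesin gene was called higher, a call made for 0.942% of all genes tested and 0.505% of detected genes, and at an unadjusted p under 0.05 the count of higher members was 0, as it was by the methods' t-test at the study's thresholds. The median log2 ratio of the kinesin genes was -0.41 over the members tested, and 27 of these 34 ratios were below 0. Over the detected members the median was -0.57, against -0.31 over all detected genes. In RNA from a whole culture, fewer cells of a kind and less RNA per cell cannot be told apart.

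**Figure D1:**
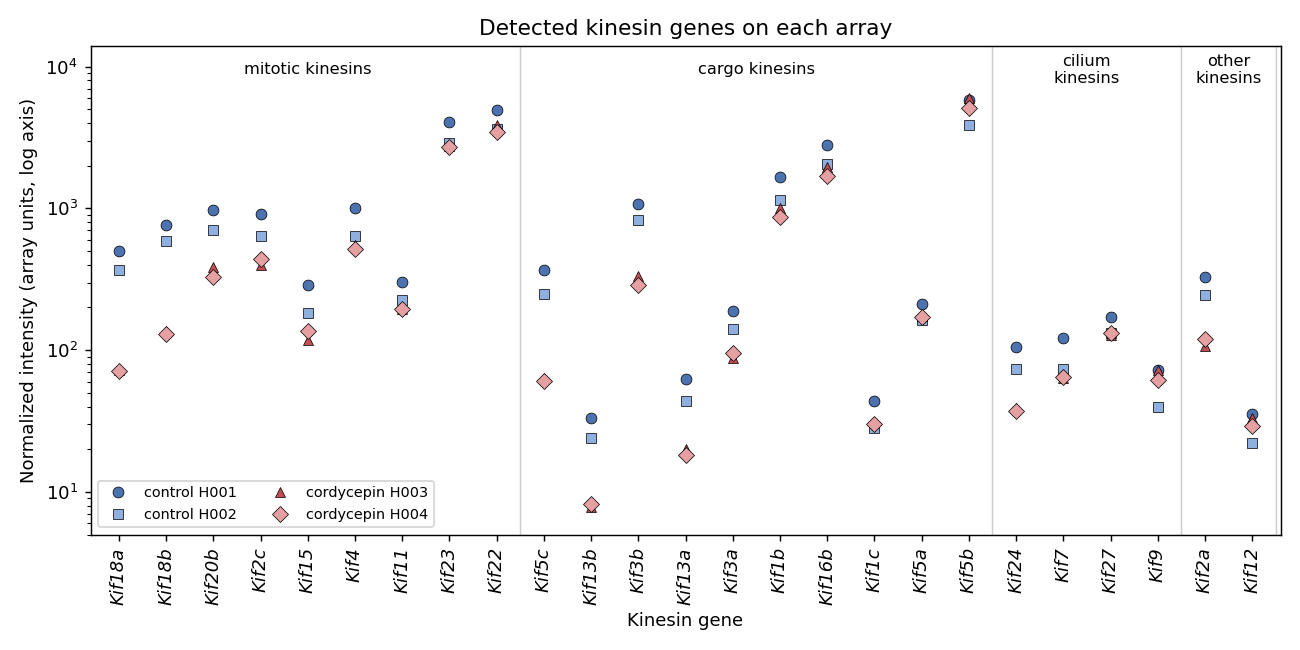
Normalized intensity (log axis, array units) of the 25 detected kinesin genes on each of the 4 arrays, with 1 point for each array and the genes grouped by role. The cordycepin points of Kif18a, Kif18b and Kif5c lie far below both control points, whereas those of Kif22, Kif5a and Kif5b overlap them, and the height of a gene depends on its probe.

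The counts of lower and of higher calls both depended on how the arrays were scaled. With every array centred on its median, 13 of the 34 members were lower, a call made for 19.8% of all genes, and 2 higher, a call made for 19.9% of all genes. All 9 genes above were among the 13, joined by Kif15, Kif17, Kif2c and Kif3a, and the higher ones were Kif2b and Kif5b. With quantile-normalized raw intensities, 10 members were lower, the same 9 and Kif17, where 17.2% of all genes were, and 5 were higher, where 22.3% of all genes were: Kif11, Kif27, Kif2b, Kif5a and Kif9. Kif2b and Kif17 were not detected on any array. Single arrays mattered for the number of calls: 17 members were lower without H002, where 29.8% of all genes were, 9 without H001, where 15.3% were, and 4 without H003 or without H004, where 7.84% and 7.31% were. These 4 were Kif13b, Kif18a, Kif18b and Kif5c in both cases, and the other 5 lower genes lost their call. Over the reported limma fit and 11 alternatives, the log2 ratio ran from -2.80 to -1.81 for Kif18a, -2.51 to -1.57 for Kif18b and -2.56 to -1.51 for Kif5c. These fits use the same arrays, and several leave the ratios the same or nearly so, so that they are not separate tests. The adjusted p of Kif18a, Kif18b and Kif5c moved far more. As reported, with 1 standard error shared by all genes, it was 8.42e-09, 2.92e-07 and 5.22e-07. In limma it was 0.0012, 0.0014 and 0.00145 with centred arrays, and 0.0104, 0.0104 and 0.0119 with unscaled raw intensities. The methods' t-test after adjustment called none of the 9 genes, and its adjusted p was 0.32 for each of these 3.

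**Figure D2:**
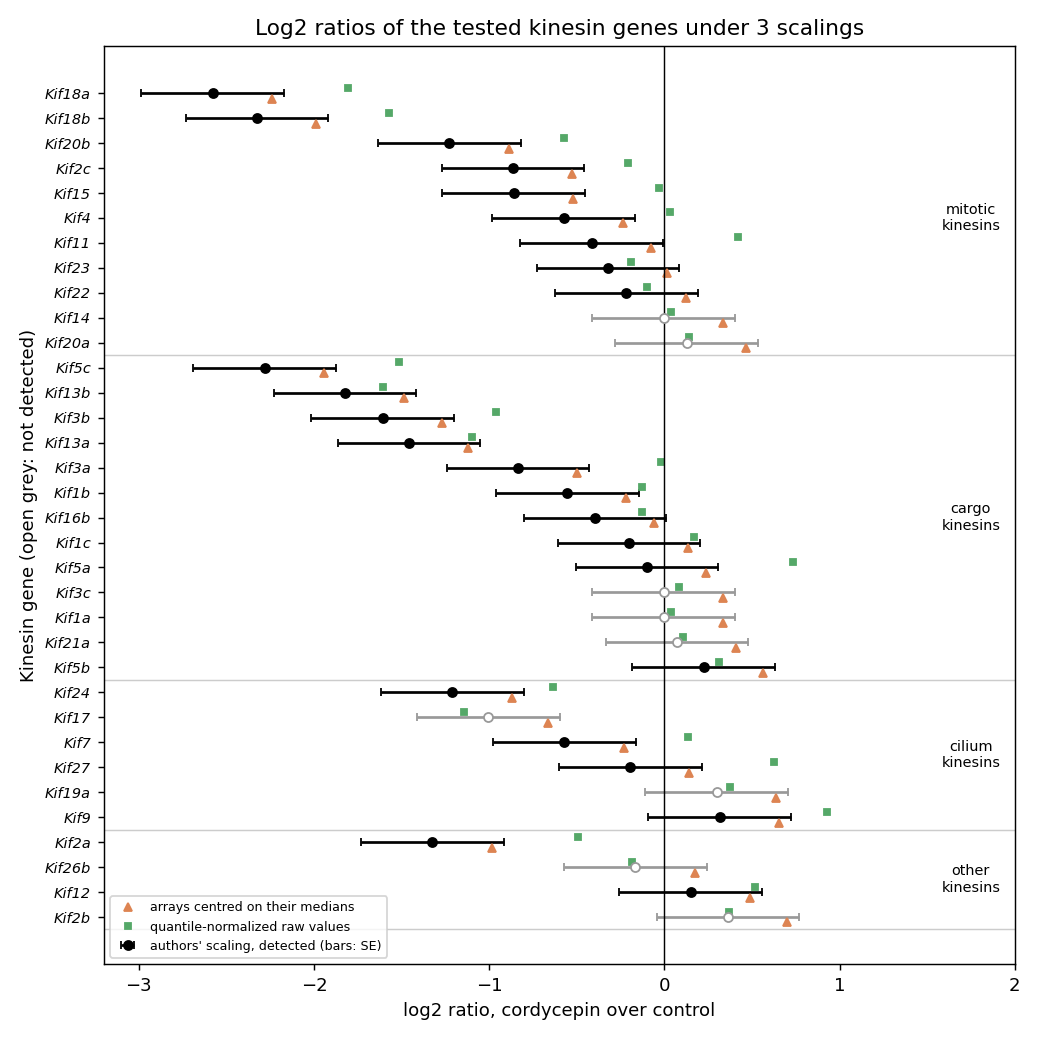
Log2 ratio (cordycepin over control) of the 34 tested kinesin genes with the authors' scaling (circles with standard errors, open grey where the gene was not detected), with arrays centred on their medians (triangles) and with quantile-normalized raw values (squares). Kif18a, Kif18b and Kif5c lie furthest to the left under the authors' scaling and with centred arrays, and genes near 0, such as Kif11 and Kif5a, change sign between scalings.

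**Figure D3:**
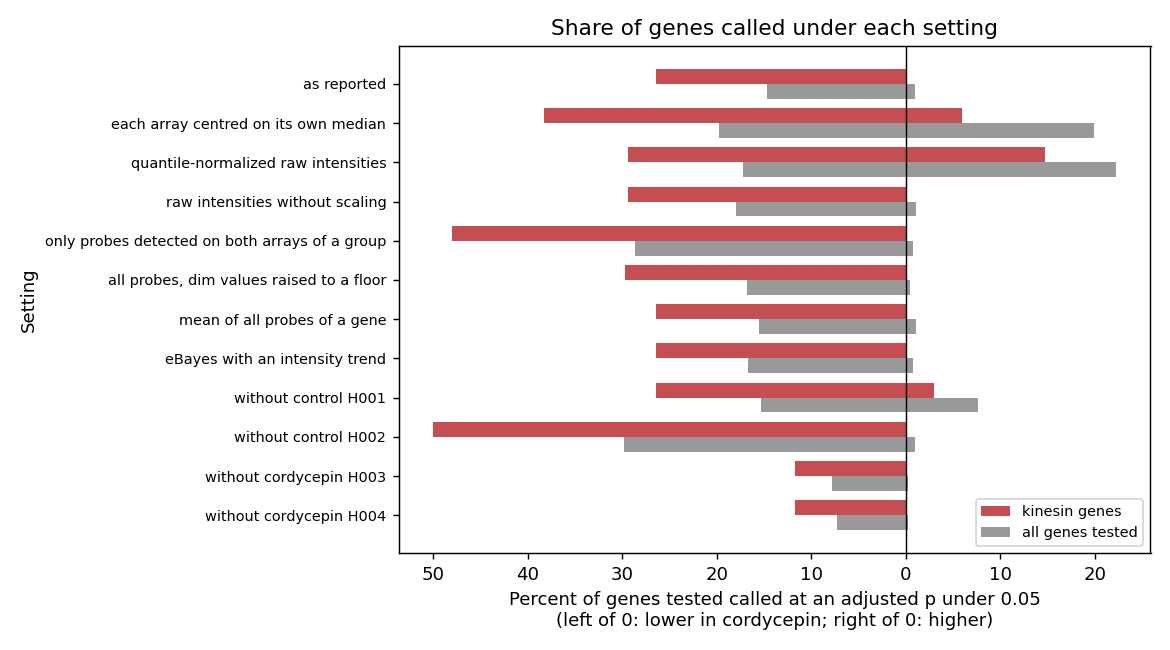
Percent of genes called lower (left of 0) and higher (right of 0) in cordycepin under the reported setting and 11 alternatives, for the kinesin genes (red) and all genes tested (grey). The share of kinesin genes called lower is 26.5% as reported and 50% without H002, and the share of all genes moves with it.

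Among the mitotic kinesins, 3 of 11 were lower (27.3%, against 14.7% of all genes tested) and 0 higher, with a median log2 ratio of -0.57. Both detected members of the kinesin-8 family were lower, a call made for 22.1% of all detected genes. Kif18a, which gathers at the plus ends of kinetochore microtubules and damps the swinging of chromosomes at the spindle equator, read 498 and 367 on the control arrays and 72.2 and 70.9 on the cordycepin arrays. The groups did not overlap, and the mean was 5.97-fold lower (log2 ratio -2.58, adjusted p = 8.42e-09). Kif18b, which shortens the astral microtubules that reach from the spindle to the cell cortex, read 762 and 589 in control and 137 and 131 in cordycepin. Its values did not overlap either, at 5.01-fold lower (log2 ratio -2.32, adjusted p = 2.92e-07).

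Kif20b, a kinesin-6 motor of the last steps of cytokinesis, read 981 and 707 in control and 387 and 327 in cordycepin, without overlap (log2 ratio -1.23, adjusted p = 0.0208). The other detected kinesin-6 gene, Kif23, the motor subunit of the centralspindlin complex at the midzone, read 4041 and 2877 against 2743 and 2711 (log2 ratio -0.32, adjusted p = 0.874). Its cordycepin values lay just under the lower control array. The difference between these genes can be read within each array, where a single scaling constant cancels: relative to Kif23, Kif20b was lower on both cordycepin arrays by a log2 difference of -0.90 ± 0.11 (SE, n = 2 arrays a group). Quantile normalization, which does not cancel, gave -0.38.

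The remaining detected mitotic kinesins did not pass the test. Kif2c, which takes apart wrongly attached microtubules at centromeres, read 912 and 635 in control and 400.0 and 437 in cordycepin (log2 ratio -0.86, adjusted p = 0.176). Kif15, a spindle motor that can share the work of Kif11, read 287 and 183 against 118 and 135 (log2 ratio -0.86, adjusted p = 0.179). Neither gene's groups overlapped, and both were called lower with centred arrays.

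Kif4, a chromosome-bound kinesin that works with Prc1 at the midzone, read 999 and 634 against 550.0 and 519 (log2 ratio -0.57). Kif11, the motor that pushes the spindle poles apart, read 303 and 225 against 197 and 195 (log2 ratio -0.42, adjusted p = 0.74), and with quantile normalization its log2 ratio was 0.42 and it was called higher. Kif22, a motor on chromosome arms, read 4982 and 3659 against 3873 and 3484, with overlapping groups (log2 ratio -0.22). Kif14 and Kif20a, both motors of cytokinesis, were not detected on any array, with intensities of 8.01 or less.

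Promoters of the mitotic kinesins are shown because these genes differed in their ratios while sharing a short element. The sequences and motifs were chosen after the values had been seen. Transcription of many mitotic genes is set by the cell cycle genes homology region, TTTGAA, which is bound by a complex containing Lin9 and Lin54. In the RefSeq promoter sequences of build GRCm38.p6, which held 31 of the 37 members, TTTGAA on either strand lay between 60 bases before and 40 after the transcription start in 7 of 10 mitotic kinesins, 70%, against 5.08% of all 32851 promoters. The windows of 3 of these and of Kif18a and Kif5c follow in the 5' to 3' direction of each gene, with TTTGAA or its reverse complement TTCAAA, and TGACGTCA, in capitals.
Kif18b promoter, chr11:102925085-102925184, minus strand: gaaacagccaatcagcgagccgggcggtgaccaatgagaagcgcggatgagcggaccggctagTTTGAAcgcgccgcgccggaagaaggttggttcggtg
Kif20b promoter, chr19:34922298-34922397, plus strand: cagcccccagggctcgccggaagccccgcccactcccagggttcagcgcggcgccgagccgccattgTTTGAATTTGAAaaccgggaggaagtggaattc
Kif11 promoter, chr19:37376322-37376421, plus strand: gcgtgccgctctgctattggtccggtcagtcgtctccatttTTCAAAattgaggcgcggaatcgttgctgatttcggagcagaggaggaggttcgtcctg
Kif18a promoter, chr2:109280678-109280777, plus strand: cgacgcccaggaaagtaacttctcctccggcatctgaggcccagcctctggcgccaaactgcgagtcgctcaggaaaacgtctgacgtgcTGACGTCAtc
Kif5c promoter, chr2:49619226-49619325, plus strand: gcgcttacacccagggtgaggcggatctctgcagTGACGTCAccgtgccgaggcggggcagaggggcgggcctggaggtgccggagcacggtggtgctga
Kif18b and Kif20b, which were lower, hold the element, Kif20b in tandem. Kif11, Kif15, Kif4, Kif22 and Kif23, which were not called, hold it in this window as well. Kif18a, with the lowest ratio of the family, has no TTTGAA in its 300-base promoter. It holds TGACGTCA, the cyclic AMP response element, starting at position 31 after the start. Kif5c holds the same element starting at position -26, and Kif17, which was not detected, holds it at position -86. Of all promoters, 1.79% hold TGACGTCA in these 300 bases, and of the lower members with a promoter sequence 2 of 8 do. TTTGAA in the 100-base window was present in 2 of these 8. CCAAT was searched as well, and lay in the 300 bases of 37.5% of the lower members and 37.4% of all promoters. In the 100-base window CCAAT lay in 12.5% of the lower members, 50% of the mitotic kinesins and 14.8% of all promoters. A match is a description of the letters, and binding was not measured.

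Cargo kinesins held 4 lower genes of 13 tested (30.8%, against 14.7% of all genes tested), with a median log2 ratio of -0.40. Kinesin-1 heavy chains Kif5a, Kif5b and Kif5c carry mitochondria, vesicles and RNA, Kif5b in most cells and the others mainly in neurons, and the 3 genes differed. Kif5c read 365 and 249 in control and 63.3 and 60.9 in cordycepin. The groups were far apart, at 4.86-fold lower (log2 ratio -2.28, adjusted p = 5.22e-07). Kif5b read 5861 and 3854 in control and 6007 and 5135 in cordycepin, so that the groups overlapped (log2 ratio 0.22, adjusted p = 0.95), and with centred arrays it was called higher (log2 ratio 0.56, adjusted p = 0.0375). Kif5a read 213 and 162 against 174 and 173, also with overlap (log2 ratio -0.10).

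Within each array, Kif5c fell relative to Kif5b by a log2 difference of -2.51 ± 0.09 (SE, n = 2 arrays a group). Kif5a relative to Kif5b differed by -0.32 ± 0.15. Multiplying an array by a constant leaves these differences as they are, but quantile normalization gave -1.82 for Kif5c and turned the direction for Kif5a, at 0.42. In each of the 8 pairs that were compared, chosen after the values had been seen, the groups did not overlap with the authors' scaling and the exact permutation p was 0.333, the smallest these arrays can give, or 0.333 after adjustment over the 8 pairs.

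**Figure D4:**
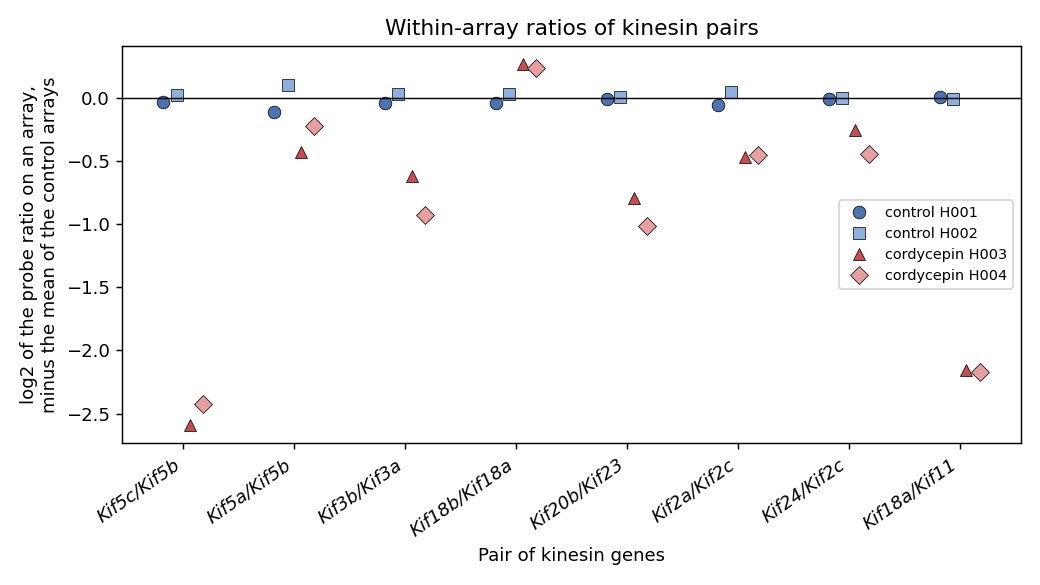
Log2 of the ratio between 2 kinesin probes on the same array, minus the mean of the control arrays, for 8 pairs of kinesin genes on the 4 arrays, with the authors' scaling. The cordycepin arrays lie near -2.5 for Kif5c over Kif5b and above 0 for Kif18b over Kif18a alone, and the control arrays lie within 0.11 of 0.

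Kif3a and Kif3b form, with the adaptor Kifap3, the heterotrimeric kinesin-2 that carries cargo in the cytoplasm and builds cilia by intraflagellar transport. Kif3b read 1073 and 832 in control and 331 and 290.0 in cordycepin, 3.05-fold lower with no overlap (log2 ratio -1.61, adjusted p = 0.000954). Its other probe read 891 and 642 against 192 and 185 and was called lower as well (adjusted p = 1.64e-05). Kif3a read 190.0 and 140 against 87.8 and 95.5, also without overlap, and did not pass the test (log2 ratio -0.83, adjusted p = 0.202). Relative to Kif3a on the same array, Kif3b differed by -0.77 ± 0.16 on the log2 scale, and by -0.94 with quantile normalization. Kifap3 read 419 and 290 against 294 and 308, so that the groups overlapped (log2 ratio -0.21, adjusted p = 0.95). Kif3c, the other partner of Kif3a, was not detected.

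Of the kinesin-3 genes, mostly motors of endosomes and vesicles but also counting Kif14, 2 of 7 were lower (28.6%, against 14.7% of all genes tested). Kif13a, which moves recycling endosomes, read 63.0 and 43.5 in control and 20.0 and 18.2 in cordycepin. It was detected on both control arrays and on neither cordycepin array, which puts it at least 2.31-fold lower, taking the lowest detected intensity of each array as the floor (adjusted p = 0.00365). Kif13b, a carrier of vesicles and membrane proteins, read 33.2 and 24.0 against 7.78 and 8.18 and was at least 1.25-fold lower by the same floor (adjusted p = 0.000118). With all dim values raised to that floor, Kif13b was not called (log2 ratio -0.32, adjusted p = 0.948).

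Kif1b, a motor of mitochondria and synaptic vesicle precursors, read 1660 and 1145 in control and 1008 and 875 in cordycepin (log2 ratio -0.55). Kif16b, which carries early endosomes, read 2799 and 2053 against 1952 and 1702 (log2 ratio -0.40). Kif1c, a motor of Golgi and other vesicles, read 43.5 and 28.4 against 31.1 and 30.0 (log2 ratio -0.20). None of the 3 passed the test, and only the last had overlapping groups. Kif1a and Kif21a were not detected, nor was Kif21b, which held zeros and was not tested.

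Of the cilium kinesins, 1 of 6 tested was lower (16.7%, near the 14.7% of all genes tested). Kif24, which trims centriolar microtubules and restrains cilium assembly, read 105 and 73.7 in control and 38.9 and 37.3 in cordycepin, with no overlap (log2 ratio -1.21, adjusted p = 0.0235). Kif7, which organizes the tip of the cilium for Hedgehog signaling, read 122 and 73.7 against 63.3 and 64.5 (log2 ratio -0.57, adjusted p = 0.542). Its relative Kif27 read 171 and 131 against 129 and 133, with overlap (log2 ratio -0.19).

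Kif9, a kinesin of motile cilia and sperm tails, read 72.1 and 39.9 in control and 72.2 and 61.8 in cordycepin, again with overlap (log2 ratio 0.32). Kif17 and Kif19a were not detected, with intensities of 8.89 or less. Kif6 held zeros on 3 arrays and was not tested.

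The remaining members have mixed roles. Kif2a, a kinesin-13 that takes microtubules apart at spindle poles and in interphase cells, read 329 and 245 in control and 108 and 119 in cordycepin, 2.50-fold lower without overlap (log2 ratio -1.32, adjusted p = 0.0105). Kif24 and Kif2c belong to the same depolymerizing family, in which 2 of 4 genes were called lower (50%, against 14.7% of all genes tested). Relative to Kif2c on the same array, Kif2a differed by -0.46 ± 0.05 and Kif24 by -0.35 ± 0.09 on the log2 scale (-0.28 and -0.43 with quantile normalization). Kif12 read 35.5 and 22.2 against 33.3 and 29.1, with overlap (log2 ratio 0.15). Kif2b, Kif26a and Kif26b were not detected.

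Other pairs were compared in the same way. Relative to Kif18a, Kif18b differed by 0.25 ± 0.04. Relative to Kif11, Kif18a differed by -2.16 ± 0.01. With quantile normalization these were 0.24 and -2.23. Probe sequences were not used here, and whether a probe also binds the mRNA of a related kinesin was not tested. Of the 5 members with 2 probes detected on every array, both probes had the same sign in 5, with a difference in log2 ratio of at most 0.39.

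Kinesins whose symbols do not follow the Kif-and-number form were 4 in number among those tested, and 2 were lower (50%). All 4 were detected, and of all detected genes 22.1% were lower. Kifc5b, a minus-end motor of the spindle, read 38.9 and 27.5 in control and 6.67 and 9.09 in cordycepin, where it was not detected, and was at least 1.45-fold lower (adjusted p = 7.16e-06). Cenpe, the kinetochore motor that brings chromosomes to the spindle equator, read 417 and 249 against 159 and 119 (log2 ratio -1.23, adjusted p = 0.0205). Neither gene's groups overlapped.

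Among the kinesin light chains and cargo adaptors, 1 of 19 tested was lower, with 0 higher and a median log2 ratio of -0.21. This was 5.26% of those tested and 6.67% of those detected, under the 14.7% and 22.1% of all genes. The lower gene was Mapk8ip3, an adaptor between kinesin-1 and vesicles, which read 251 and 181 in control and 76.7 and 70.0 in cordycepin, without overlap (log2 ratio -1.54, adjusted p = 0.00176). The count was 0 without H003 or without H004 (7.84% and 7.31% of all genes) and 5 without H002 (29.8% of all genes). The light chains Klc1, Klc2, Klc3 and Klc4, which link kinesin-1 to its cargo, had log2 ratios of -0.02, -0.19, 0.32 and -0.18, and none was called.

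Partners of the mitotic kinesins were lower in 6 of 21 genes tested, with a median log2 ratio of -0.51. All 21 were detected, so that this share of 28.6% stands beside the 22.1% of all detected genes. Aurka, the kinase of the spindle poles, read 1708 and 1466 in control and 324 and 302 in cordycepin, 5.06-fold lower (adjusted p = 2.44e-07). Lin9 and Lin54, subunits of the complex that binds TTTGAA, had log2 ratios of -1.83 and -1.45 (adjusted p = 0.000114 and 0.00397). The 3 genes had no overlap between groups. Incenp, Mybl2 and Tpx2 were the other lower genes. The count was 2 without H003, 1 without H004 and 11 without H002, where 7.84%, 7.31% and 29.8% of all genes were lower.

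Dynein and dynactin, the motor that runs toward the minus end of the microtubule and its activator, held 3 lower genes of 22 tested, 13.6% against 14.7% of all genes, and 2 of 20 detected, 10% against 22.1% of all detected genes. Actr1a, which forms the dynactin filament, read 767 and 566 in control and 154 and 146 in cordycepin, 4.38-fold lower with no overlap (adjusted p = 3.49e-06). Ndel1, a dynein regulator, had a log2 ratio of -1.37 (adjusted p = 0.00753), and Bicd1 was called but not detected on any array. The count was 1 without H001 (15.3% of all genes), without H003 (7.84%) or without H004 (7.31%), and 9 without H002 (29.8%). Dync1h1, the heavy chain of dynein, read 1585 and 1111 against 1041 and 986 (log2 ratio -0.39, adjusted p = 0.783).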

How the data were processed

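Total RNA of 4 samples of MA-10 cells was hybridized to 1 Mouse OneArray each, with 26423 mouse probes. The authors deposited raw intensities and normalized intensities, the latter being the raw intensity of an array times 1 constant between 0.888 and 1.14, and a detection p-value for each probe and array. The scanner software and the method of normalization are not given in the sources used here. The authors' log2 ratio and p-value of the comparison and their spot flags were not used. The log2 of the normalized intensity was tested by limma 3.58.1 under R 4.3.3, with default settings of lmFit and eBayes, for 24319 probes above 0 on every array, and 2104 were left out. The prior degrees of freedom were infinite, so that all genes shared 1 standard error. The smallest adjusted p-values of the report depend on this. With centred arrays the prior degrees of freedom were 1.91, and standard errors differed between genes. A gene was represented by the probe with the highest mean over the 4 arrays, and only probes with 1 symbol were used. The number of arrays limits the precision.

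Every member was accounted for, and those detected on both arrays of a group were given by array. Of the other lists, up to 3 called and detected genes with the largest log2 ratio in size were named, and further genes were named after their values were seen. The members and lists were chosen with earlier results of these data known. Alternatives were other scalings, a detection filter, a floor, the mean of probes, an intensity trend, leaving out each array, and a Student's t-test on log2 values. The study's methods name Student's t-test for differences between groups, without saying that it was used for the arrays. Pair ratios under quantile normalization were added after the data were seen. Groups share no replicate numbers. The files name no genome build, and promoters came from RefSeq (GRCm38.p6).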

Additional observations from a re-analysis of the deposited data

How the results depend on the processing

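No paired analysis was possible because the labels give the groups no replicate number in common. Unscaled raw intensities and the detection filter left the log2 ratios of the 25 detected kinesin genes the same or nearly so. The floor changed only Kif13a and Kif13b, to -1.21 and -0.32. These settings could hardly reverse a sign, and 0 were reversed. The mean of all probes and the intensity trend gave 9 lower and 0 higher kinesin genes. Of all genes, 15.5% and 16.7% were lower and 1.10% and 0.785% higher in these 2 settings. The count of lower kinesin genes ran from 4 to 17 when 1 array was left out, and the methods' t-test after adjustment called 0 of all genes, against 9 kinesin genes at the study's thresholds, which ask for a log2 ratio of 1 or more in size without adjusting p. The count of higher kinesin genes was 2 with centred arrays, 5 with quantile normalization, and 0 to 1 when an array was left out. The median log2 ratio of the kinesin genes was -0.067 with centred arrays, -0.025 with quantile normalization, and -0.67 to -0.19 when an array was left out. Light chain and adaptor genes were lower in 2 cases with centred arrays, quantile normalization, the detection filter or the floor, and in 0 to 5 when an array was left out. Lower mitotic partners ran from 1 to 11 when an array was left out. Lower dynein and dynactin genes were 5 with quantile normalization and ran from 1 to 9 when an array was left out. With centred arrays, the log2 ratio turned to 0.016 for Kif23, 0.12 for Kif22, 0.14 for Kif1c, 0.24 for Kif5a and 0.14 for Kif27. With quantile normalization, it turned to 0.030 for Kif4, 0.42 for Kif11, 0.17 for Kif1c, 0.73 for Kif5a, 0.13 for Kif7 and 0.62 for Kif27, with Kif11, Kif5a and Kif27 called higher. When an array was left out, it ran from -0.44 to 0.0055 for Kif22, -0.51 to 0.10 for Kif1c, -0.29 to 0.10 for Kif5a, -0.078 to 0.53 for Kif5b, -0.11 to 0.74 for Kif9, -0.19 to 0.49 for Kif12. The cause was not tested. Kif13a, Kif13b, Kif1c and Kif12 lie near the lowest detected intensity, where their ratios are least certain.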
